A study of Mus musculus with 16 samples.

Results

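Heat shock protein and DNAJ genes were taken here as the protein-coding genes whose mouse GENCODE symbol begins with Hsp or Dnaj. By GENCODE release M39 the deposited table holds 74 such genes, of which 69 reached 10 counts or more, summed over the libraries, in every one of the 4 groups. These 69 genes are the members described here, out of 20159 genes that met the same minimum. The members under it were Hspb9, Dnajb8, Dnajc5b, Dnajc5g and Dnajc22, each with at most 18 summed counts in any group. By class the members are 6 small heat shock proteins, 11 HSP70 proteins, 3 HSP110 proteins, 3 HSP90 proteins, 2 chaperonin genes, 4 DNAJA, 12 DNAJB and 25 DNAJC genes, and 3 genes that share only the first letters (Hspg2, Hspbp1 and Hspbap1).

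Total RNA was sequenced from the ventricles of neonatal mice in 16 libraries, 4 in each of 4 groups. Nothing in the labels says that each library is a separate mouse, so p-values measure the spread between these libraries. WT SH and WT MI were C57BL/6J mice after sham surgery or after myocardial infarction (MI) by ligation of the left anterior descending artery on postnatal day 1. KO SH and KO MI were Lrrc10-/- mice, a germline knockout on a C57BL/6 background in which every cell lacks the gene, after the same operations. Ventricles were collected 7 days after surgery, and KO MI replicates are numbered 1, 2, 3 and 7. Libraries held between 33783874 and 57470159 expected counts, so that 3 counts, taken as the floor, stand for at most 0.0858 CPM (counts scaled to a library total of 1000000). Lrrc10 had no count in the 8 KO libraries and from 1075 to 1850 counts in the WT libraries. Y-linked genes were present in all 4 WT SH libraries and in 2 libraries of each other group, so sex and the WT SH group are partly confounded. WT SH replicate 1 had the highest summed level of 5 cardiomyocyte markers, 34940 CPM, against 21950 to 29440 CPM in the other libraries. KO MI replicates 2 and 7 had 67.8 and 111 CPM of 6 skeletal muscle markers, against at most 12.2 CPM elsewhere. The samples are bulk tissue, in which fewer cells of a type and less RNA per cell cannot be told apart.

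Molecular chaperones hold unfolded proteins in solution and help them reach their folded form. HSP70 proteins bind exposed stretches of a client and release them in a cycle driven by ATP. J-domain (DNAJ) proteins deliver clients to HSP70 and start the hydrolysis of ATP, and HSP110 proteins exchange the nucleotide afterwards. HSP90 acts later on partly folded clients such as kinases and steroid receptors. Small heat shock proteins bind unfolding proteins without ATP, and several of them are abundant in striated muscle, where they guard the sarcomere. The chaperonin of the mitochondrion, formed by Hspd1 and Hspe1, encloses imported proteins, and a separate set of HSP70, HSP90 and DNAJ proteins works in the endoplasmic reticulum (ER). The transcription factor HSF1 drives the cytosolic and mitochondrial genes under heat or protein stress, and the unfolded protein response drives the ER genes.

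Levels were compared between genes per length, as CPM per kb of the canonical transcript, averaged over the 16 libraries. The constitutive cytosolic HSP70 gene Hspa8 was highest, at 382 CPM per kb (range over libraries 345 to 444). Next came the constitutive HSP90 gene Hsp90ab1, at 247 CPM per kb (range 215 to 330), and Hspb7, a small heat shock protein of heart muscle, at 200 CPM per kb (range 128 to 332). The ranges of Hsp90ab1 and Hspb7 overlap over the libraries, so the order of these neighbours is not firm. The ER gene Hsp90b1 (160 CPM per kb) and the mitochondrial HSP70 gene Hspa9 (119 CPM per kb) followed, and their ranges, 144 to 194 and 99.8 to 147, also overlap. Among the J-domain genes the highest per length were Dnajc8, a splicing-associated protein, at 51.6 CPM per kb, and Dnaja2, a partner of cytosolic HSP70, at 24.1 CPM per kb. At the other end stood the heat-inducible HSP70 genes Hspa1a and Hspa1b, at 0.469 and 0.435 CPM per kb. These are near-identical copies, so the division of reads between them by RSEM is uncertain. Dnajc6, known from clathrin uncoating in neurons, was lowest at 0.0175 CPM per kb.

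**Figure D1:**
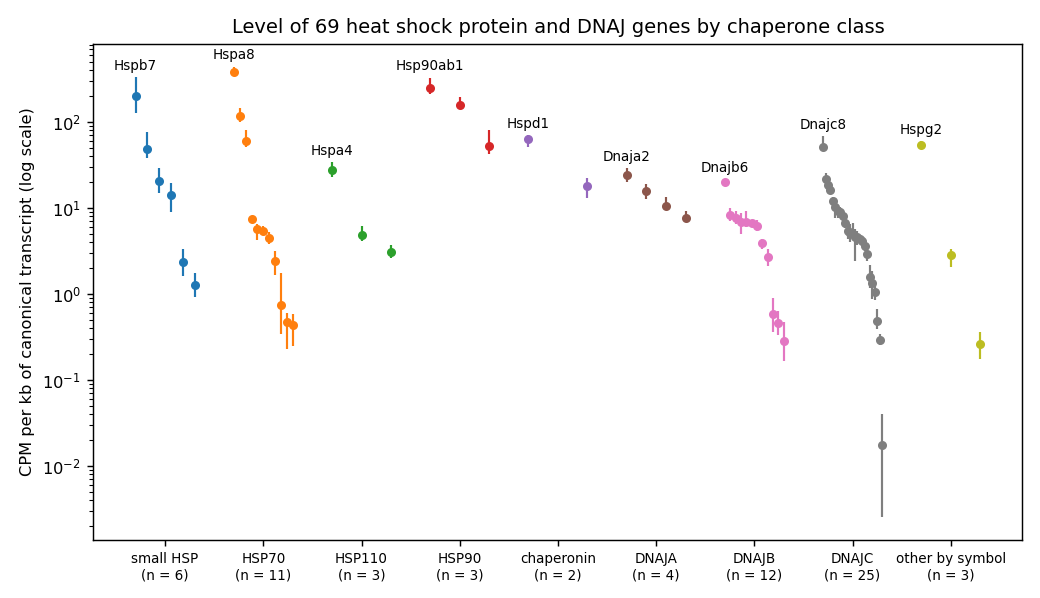
Mean level of each of the 69 members in CPM per kb of canonical transcript (log axis), by chaperone class, with lines from the lowest to the highest of the 16 libraries. Hspa8 (382 CPM per kb) leads the HSP70 class, while Hspa1a (0.469) and Hspa1b (0.435) lie near its foot.

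Groups were compared with edgeR's quasi-likelihood F-test (two-sided) with Benjamini-Hochberg adjustment over all 20159 genes. A gene is said to rise or fall where the adjusted p was under 0.1, and it is called a differentially expressed gene (DEG) where the absolute log2 fold change was also at least 0.5. In sham-operated hearts, KO SH against WT SH asked what loss of Lrrc10 changes, and 0 members were DEGs, against 5.01% of all genes. Falls without the fold minimum were seen in 14 members (7.21% of all genes fell) and rises in 2 members (5.11% of all genes rose). DESeq2 also called 0 members (5.33% of all genes). By edgeR 23 members had an unadjusted p under 0.05, against 4598 of the 20159 genes. Estimates were negative for 53 of the 69 members, with a median log2 fold change of -0.08, against 0.01 over all genes. Without WT SH replicate 1 they were negative for 44 of 68, and 7 members fell and 1 rose (4.22% of all genes fell). With sex as a covariate 17 fell and 1 rose (7.31% of all genes fell), and among libraries with Y-linked genes only Dnajc3 and Hspe1 fell and 0 rose (2.35% of all genes fell). KO MI against WT MI asked the same of the injured heart. Here 0 members were DEGs by edgeR (1.73% of all genes were) or DESeq2 (2.26% of all genes). By edgeR 1 member fell (2.04% of all genes fell). An unadjusted p under 0.05 by edgeR was seen for 5 members, against 2502 of the 20159 genes.

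WT MI against WT SH asked what MI changes in the regenerating WT heart 7 days later. By edgeR 0 members were DEGs, against 2.77% of all genes, and DESeq2 called 0 as well (3.39% of all genes). In it 3 members fell, against 2.2% of all genes. By edgeR 10 members had an unadjusted p under 0.05, against 3325 of the 20159 genes. KO MI against KO SH asked the same of KO hearts. Here 4 members were DEGs, against 7.41% of all genes. Hspb1, Hspb6 and Hspa1l were higher in KO MI and Dnajc28 was lower. DESeq2 called 5 members (7.69% of all genes), these 4 and Hsp90aa1. In all 8 members rose (10.2% of all genes rose) and 3 members fell (7.31% of all genes fell). Among libraries with Y-linked genes 0 members were DEGs by edgeR (3.08% of all genes were). There 1 member rose and 1 fell (3.03% of all genes rose and 1.02% fell). The median log2 fold change of the members was 0.07, against -0.01 over all genes. Each group enters 2 of these comparisons, so a high or low group moves both of them. In the interaction, which asks whether the KO effect differs between MI and sham, 0 members were DEGs by edgeR, against 0.0248% of all genes. Of the members 17 had an unadjusted p under 0.05 by edgeR, against 2745 of the 20159 genes. DESeq2 called 3 members there, against 1.43% of all genes by DESeq2.

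**Figure D2:**
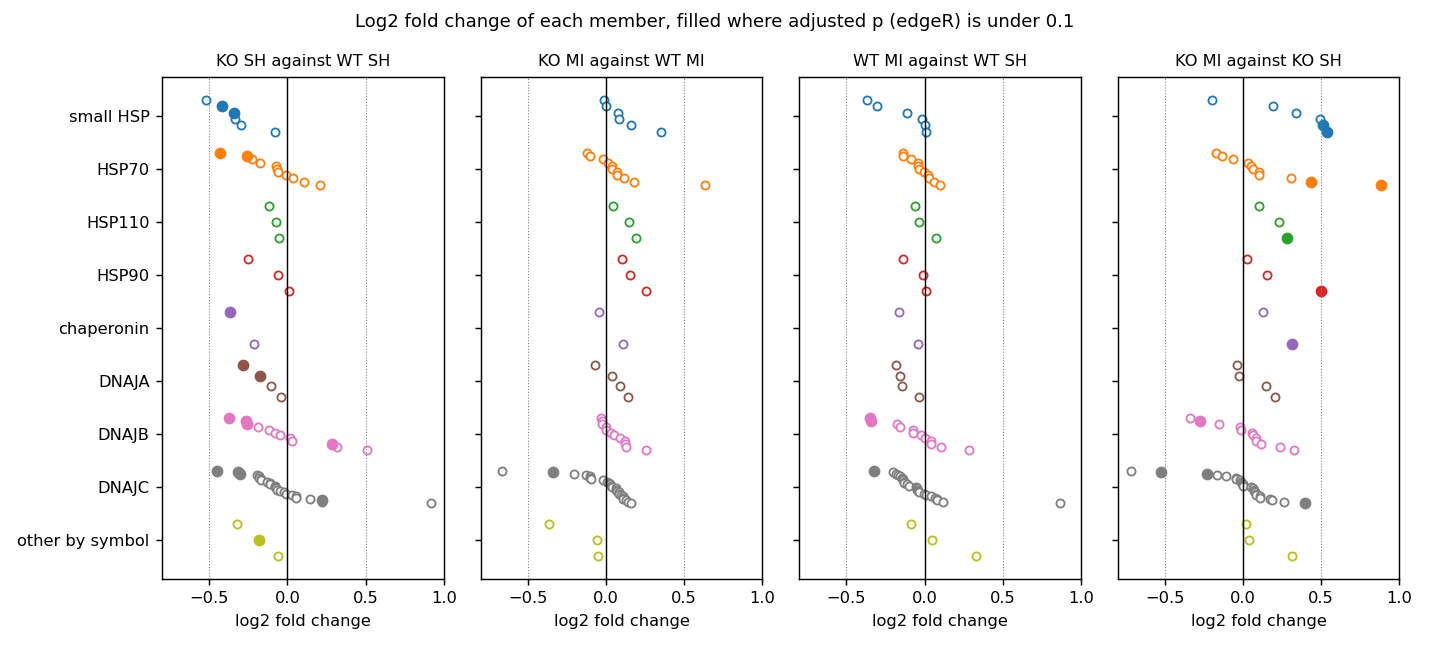
Log2 fold change of each of the 69 members (x axis) by chaperone class (y axis) in the 4 comparisons, filled where the adjusted p from edgeR is under 0.1, with dotted lines at -0.5 and 0.5. In KO SH against WT SH the 6 small heat shock protein genes all lie below 0, and in KO MI against KO SH 5 of the 6 lie above it.

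Dnajc3 had the smallest p of the members in both KO against WT comparisons. It encodes P58IPK, a J-domain protein of the ER lumen that works with the ER HSP70 BiP and is known as an inhibitor of the kinase PERK. Its gene (ENSMUSG00000022136) lies on chromosome 14 of GRCm39, from 119175317 to 119219115 on the plus strand. In WT SH the 4 libraries had 33.6, 32.0, 29.2 and 29.6 CPM, and in KO SH they had 23.2, 22.8, 21.2 and 24.0 CPM. All KO SH libraries thus lay below all WT SH libraries. After MI the WT libraries had 31.1, 31.0, 28.0 and 30.4 CPM, and the KO libraries had 22.1, 26.7, 25.7 and 20.8 CPM, again without overlap. The log2 fold change was -0.45 (SE 0.0765, edgeR adjusted p = 0.00207) in the sham comparison and -0.34 (SE 0.0761, edgeR adjusted p = 0.0264) after MI. The exact permutation test gave p = 0.0286 for each, the smallest it can give with 4 libraries against 4. MI itself left no detectable difference, with log2 fold changes of -0.05 (SE 0.0759) in WT and 0.06 (SE 0.0766) in KO. The fall in the sham hearts remained without any single library and among libraries with Y-linked genes (adjusted p = 0.0437). After MI it remained without any single library, but not with only the WT MI and KO MI libraries in the fit or among libraries with Y-linked genes (adjusted p = 0.331, log2 fold change -0.34).

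The sequence before the start of Dnajc3 is shown because it shares a rare element with only 2 other members, which did not fall with it. The ER stress element, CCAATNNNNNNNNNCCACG, was searched on both strands in the 300 bases before the canonical start of each gene in GRCm39, with starts from GENCODE M39. It was found before 3 of the 69 members (4.35%) and before 16 of 14577 tested protein-coding genes (0.11%). Each site is printed 5′ to 3′ on the strand of its gene, with the element in capitals and 5 bases on either side.
Dnajc3, plus strand, chr14:119175234-119175262, element 106 to 88 bases before the start: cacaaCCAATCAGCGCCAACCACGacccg
Hspa5, plus strand, chr2:34662032-34662060, element 67 to 49 bases before the start: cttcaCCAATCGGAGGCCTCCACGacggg
Hsp90b1, minus strand, chr10:86541497-86541525, element 142 to 124 bases before the start: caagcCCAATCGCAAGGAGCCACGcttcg
Hsp90b1, minus strand, chr10:86541392-86541420, element 37 to 19 bases before the start, read from the other strand: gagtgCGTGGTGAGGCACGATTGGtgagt
Some annotated transcripts of Hspa5 and Hsp90b1 start farther upstream and span the Hspa5 site and the site of Hsp90b1 nearer its start. A match is a description of letters and was not tested for function.

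Hspa5 encodes BiP, the ER HSP70, and its log2 fold change in KO SH against WT SH was 0.21 (SE 0.109, edgeR adjusted p = 0.27). Its KO SH libraries had 404, 301, 277 and 339 CPM, which overlap the 268 to 302 CPM of WT SH. Hsp90b1 encodes GRP94, the ER HSP90, and its log2 fold change there was 0.01 (SE 0.0826). Neither passed there. Dnajb9, an ER J-domain protein that represses the sensor IRE1, had 22.9, 18.5, 16.9 and 20.7 CPM in KO SH and from 15.5 to 16.9 CPM in WT SH. It rose in KO SH by 0.28 on the log2 scale (SE 0.0877, edgeR adjusted p = 0.0559) and fell in KO MI against KO SH by 0.27 (SE 0.0874, edgeR adjusted p = 0.051). Each of these calls was lost without any one of 4 of the 8 libraries compared, among them KO SH replicates 1 and 4, with adjusted p up to 0.199 and 0.187. The rise was also lost with sex as a covariate (edgeR adjusted p = 0.103), and the fall with only the KO SH and KO MI libraries in the fit. Dnajb11, the ER J-domain partner that binds clients for BiP, did not pass in any comparison. Of the 10 ER members 1 rose and 1 fell in KO SH against WT SH (5.11% of all genes rose and 7.21% fell). The median log2 fold change of the 10 was 0.02.

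**Figure D3:**
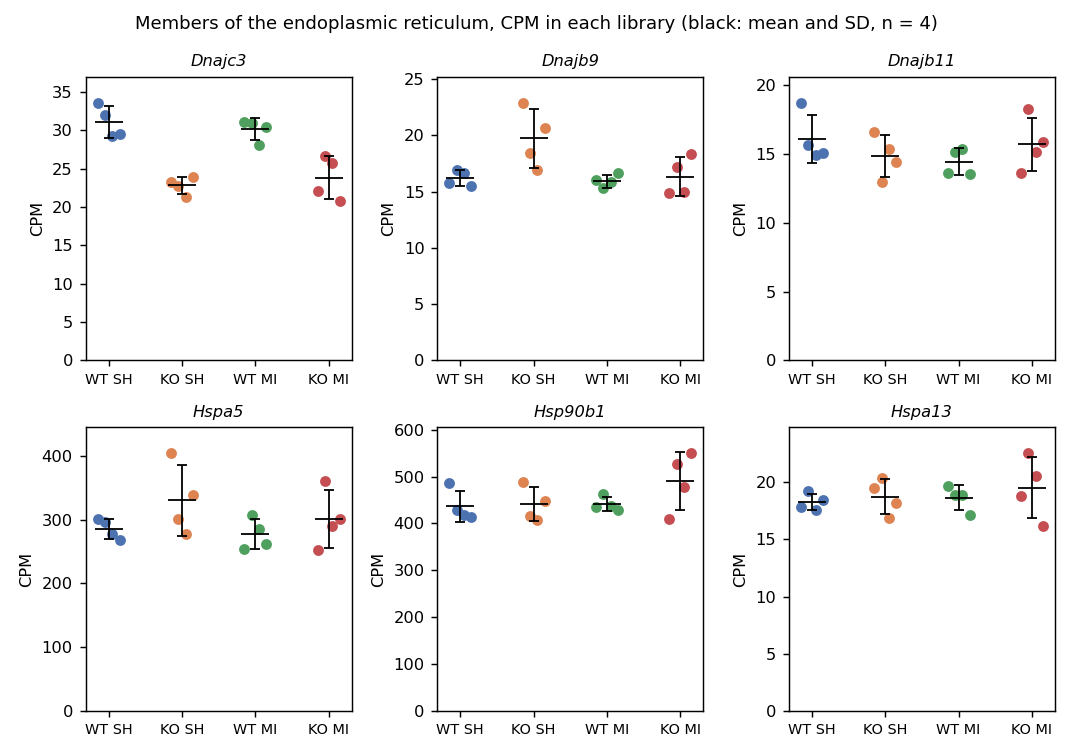
CPM (y axis, from 0) of 6 ER members in each library by group, with black bars for mean and SD (n = 4). Dnajc3 lies between 20.8 and 26.7 CPM in the 8 KO libraries and between 28.0 and 33.6 CPM in the 8 WT libraries.

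In the mitochondrial group 4 of the 8 members fell in KO SH against WT SH (7.21% of all genes fell) and the estimates were negative for 8 of 8, with a median log2 fold change of -0.24. Hspe1, Dnaja3, Hspa9 and Dnajc15 were those that fell. Hspe1, the lid of the mitochondrial chaperonin, had 17.2, 16.1, 14.7 and 13.8 CPM in WT SH and 13.3, 12.3, 12.1 and 10.1 CPM in KO SH. Every KO SH library lay below every WT SH library, and the log2 fold change was -0.37 (SE 0.0851, edgeR adjusted p = 0.0145). This fall remained without any single library and among libraries with Y-linked genes (adjusted p = 0.0613). In KO MI it was at 14.2, 16.2, 15.5 and 13.5 CPM, above every KO SH library, a rise of 0.31 on the log2 scale (SE 0.0848, edgeR adjusted p = 0.0235).

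Hspd1, the chaperonin barrel, had 172, 158, 170 and 153 CPM in WT SH and 147, 146, 131 and 137 CPM in KO SH. The groups do not overlap, but the log2 fold change of -0.22 (SE 0.0786) had an edgeR adjusted p of 0.104, just over the threshold. Hspd1 and Hspe1 stand head to head on chromosome 1, with canonical starts 108 bases apart on opposite strands. Their shared promoter is shown because it is the only one among the members with a heat shock element of 3 units, GAANNTTCNNGAA or TTCNNGAANNTTC, in the 300 bases before the start on either strand. That form is found before 2 of 69 members (2.9%) and 69 of 14577 tested protein-coding genes (0.473%). Here 2 such elements overlap, and the capitals mark both.
Hspe1, plus strand, chr1:55127213-55127240, elements 73 to 56 bases before the start: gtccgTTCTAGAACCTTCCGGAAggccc
Hspd1, minus strand, chr1:55127213-55127240, elements 52 to 35 bases before the start: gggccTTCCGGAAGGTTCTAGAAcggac
These lines are the same bases read on each strand, and other annotated transcripts of Hspd1 start farther upstream. The shorter form of 2 units, GAANNTTC or TTCNNGAA, which also lies inside the longer one, was found before 15 members (21.7%) and 1970 of all these genes (13.5%). The 15 are Hspd1, Hspe1, Hspa1a, Hspa1b, Hsph1, Hspb1, Hspb2, Hspb3, Dnaja1, Dnajc6, Dnajc10, Dnajc15, Dnajc17, Dnajc27 and Dnajc30.

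Hspa9, the HSP70 that pulls proteins into the mitochondrion, had 500, 418, 445 and 409 CPM in WT SH and 373, 374, 367 and 367 CPM in KO SH. Its log2 fold change was -0.26 (SE 0.0725, edgeR adjusted p = 0.0376), with no overlap of the groups. Dnaja3, its J-domain partner in the matrix, had 47.9, 43.5, 45.7 and 41.7 CPM in WT SH and 37.0, 38.5, 35.0 and 36.0 CPM in KO SH. Its log2 fold change was -0.29 (SE 0.0791, edgeR adjusted p = 0.0342). WT SH replicate 1 was the highest library for both genes, and without it neither passed, with adjusted p up to 0.136 for Hspa9 and 0.113 for Dnaja3. Dnajc15 is a J-domain protein of the inner membrane and was named after its values were seen. It fell by 0.32 on the log2 scale (SE 0.0841, edgeR adjusted p = 0.0276), without loss of the call when any single library was left out. Dnajc19, a related protein of the inner membrane, differed by -0.01 (SE 0.0765) in KO SH against WT SH. It fell in KO MI against KO SH by 0.23 (SE 0.0766, edgeR adjusted p = 0.0599), a call lost without any one of 5 of the 8 libraries, KO MI replicate 2 among them. In WT MI against WT SH the 8 mitochondrial members all had negative estimates (median log2 fold change -0.15), and 0 of them passed. That comparison rests on the same WT SH libraries. Without WT SH replicate 1 the KO SH estimates stayed negative for 8 of 8, with a median of -0.19 and 2 falls, and the WT MI estimates for 7 of 8, with a median of -0.09. The summed cardiomyocyte markers moved alongside, from 24500 to 34940 CPM in WT SH and from 23510 to 24380 CPM in KO SH, where 2 of 5 fell. Summed cycling, endothelial and erythroid markers were also lower in every KO SH library than in every WT SH library. The groups overlapped for fibroblast markers (1652 to 1944 CPM in WT SH and 1627 to 1778 CPM in KO SH). They also overlapped for macrophage, skeletal muscle and immediate early markers. Cycling markers ran from 398 to 492 CPM in WT SH and from 329 to 374 CPM in KO SH (1 of 5, Mki67, fell), endothelial markers from 817 to 840 and from 742 to 782 CPM (0 of 4 fell), and erythroid markers from 522 to 726 and from 414 to 494 CPM (1 of 5 fell). The part of any of these cells in the falls of members in KO SH, Hspg2 included, was not tested.

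**Figure D4:**
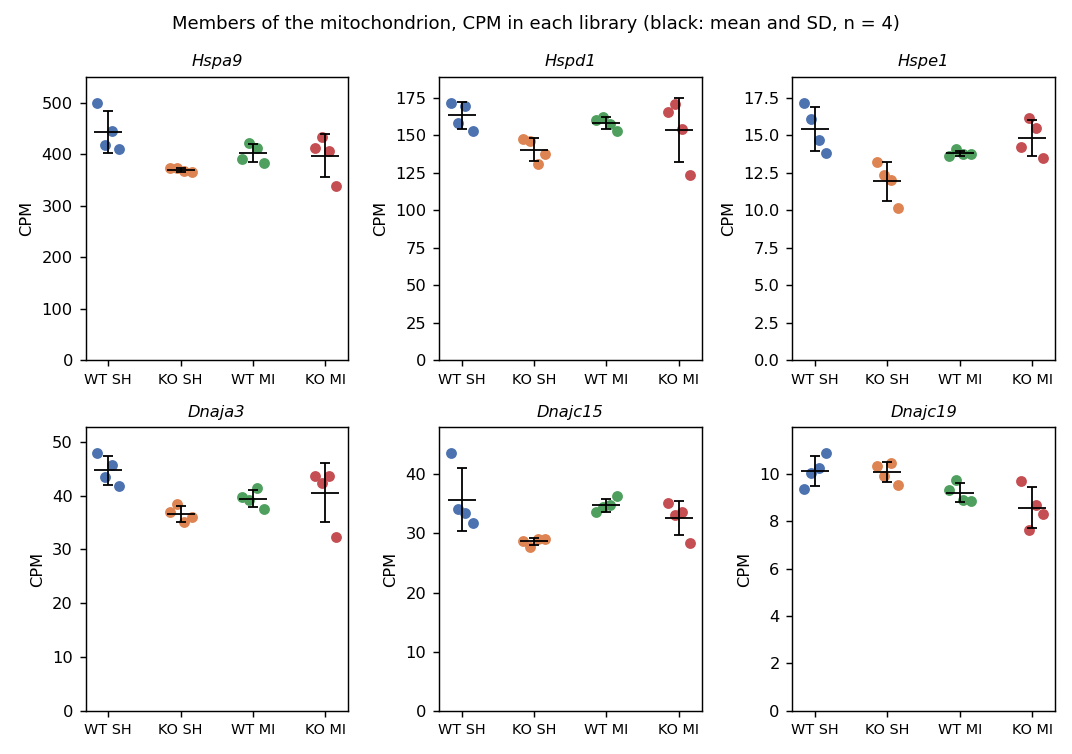
CPM (y axis, from 0) of 6 mitochondrial members in each library by group, with black bars for mean and SD (n = 4). For Hspa9 the KO SH libraries lie between 367 and 374 CPM, below the 409 to 500 CPM of WT SH.

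Small heat shock protein genes had estimates below 0 for 6 of 6 members in KO SH against WT SH (median log2 fold change -0.34), and above 0 for 5 of 6 in KO MI against KO SH (median 0.41). Hspb6 (Hsp20), a partner of troponin and actin in muscle, had 67.9, 62.1, 60.7 and 64.8 CPM in WT SH. Its KO SH libraries had 45.9, 48.2, 56.2 and 51.1 CPM, all below WT SH. KO MI had 70.2, 88.3, 68.6 and 59.6 CPM, all above KO SH, while WT MI had from 61.6 to 69.5 CPM. It fell by 0.34 in KO SH (SE 0.092, edgeR adjusted p = 0.0302) and was higher in KO MI than in KO SH by 0.51 on the log2 scale (SE 0.0919, edgeR adjusted p = 0.00269). Both calls at an adjusted p under 0.1 remained without any single library. The rise was under the fold minimum without KO MI replicate 2 (0.39), KO SH replicate 1 (0.47) or KO SH replicate 2 (0.49). Among libraries with Y-linked genes neither passed (log2 fold changes -0.24 and 0.26, adjusted p 0.163 and 0.233).

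Hspb1 (Hsp25), the stress-inducible member of the class, had 37.8, 34.9, 40.0 and 34.7 CPM in KO SH and 41.9, 70.2, 47.1 and 55.1 CPM in KO MI. Every KO MI library was higher, by 0.54 on the log2 scale (SE 0.146, edgeR adjusted p = 0.0243). KO MI replicate 2 was the highest, and without it the difference was 0.38 and did not pass (adjusted p = 0.101). Without KO MI replicates 2 and 7, the libraries high in skeletal muscle markers, it was 0.26 (adjusted p = 0.262). Hspb8, which works with Bag3 in the removal of damaged sarcomere proteins, had 36.0, 36.9, 36.9 and 32.8 CPM in WT SH and 24.4, 26.1, 30.8 and 25.2 CPM in KO SH. It fell by 0.42 (SE 0.147, edgeR adjusted p = 0.0921), a call lost without any one of 6 of the 8 libraries, all but WT SH replicate 4 and KO SH replicate 3. Its KO MI libraries spread from 19.2 to 41.2 CPM. Hspb7, found in the heart and at the filamin network of the Z-disc, had 460, 643, 702 and 621 CPM in WT SH and 405, 422, 447 and 415 CPM in KO SH. The groups do not overlap, with a log2 fold change of -0.52 (SE 0.209) and an edgeR adjusted p of 0.141. With only these 8 libraries in the fit the adjusted p was 0.00435, and Hspb7 was then a DEG. In KO MI it ran from 355 CPM in replicate 7 to 921 CPM in replicate 2, a spread wider than any difference between groups. Hspb2 and Hspb3, muscle small heat shock proteins at means of 2.43 and 0.995 CPM, did not pass in any comparison.

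**Figure D5:**
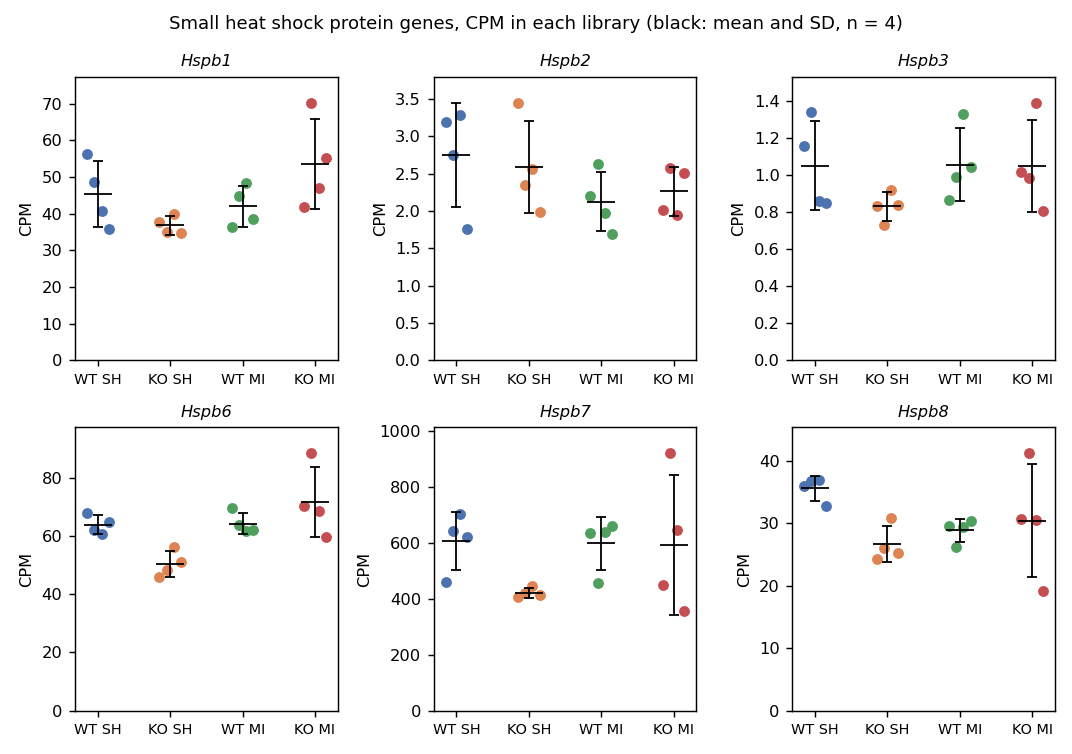
CPM (y axis, from 0) of the 6 small heat shock protein genes in each library by group, with black bars for mean and SD (n = 4). Hspb6 lies between 45.9 and 56.2 CPM in KO SH and between 59.6 and 88.3 CPM in the other groups, while Hspb7 in KO MI spans 355 to 921 CPM.

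Of the cytosolic HSP90 genes, the inducible one rose in KO MI against KO SH. Hsp90aa1, the stress-inducible HSP90, had 162, 152, 164 and 151 CPM in KO SH and 191, 286, 203 and 208 CPM in KO MI. No library of KO MI fell to the level of KO SH, and the rise was 0.50 on the log2 scale (SE 0.0993, edgeR adjusted p = 0.00493), which stood just under the fold minimum for a DEG. DESeq2 put it just over that minimum (adjusted p = 9.06e-05). It remained without any single library, was 0.35 at the least, and was 0.32 (adjusted p = 0.0096) without KO MI replicates 2 and 7. In WT the change after MI was -0.01 (SE 0.0991), with 171 to 208 CPM in WT SH and 175 to 204 CPM in WT MI. Hsp90ab1, the constitutive form, differed by 0.03 (SE 0.101) in KO MI against KO SH and did not pass in any comparison.

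Hspa8 did not pass in any comparison either. Its KO MI libraries had 987, 1062, 960 and 894 CPM, all above the 825 to 884 CPM of WT MI, with a log2 fold change of 0.18 (SE 0.062, edgeR adjusted p = 0.184). The heat-inducible Hspa1a and Hspa1b stayed between 0.673 and 1.79 CPM in the 16 libraries, with log2 fold changes from -0.17 to 0.31 in the 4 comparisons and none that passed. Hspa2, an HSP70 best known from the testis, had 4.66, 4.86, 6.65 and 5.19 CPM in KO SH, with 6.55 to 7.75 CPM in WT SH and 6.45 to 7.63 CPM in KO MI. It fell by 0.43 in KO SH (SE 0.125, edgeR adjusted p = 0.0433) and rose by 0.43 in KO MI against KO SH (SE 0.125, edgeR adjusted p = 0.0319). KO SH replicate 3 overlaps both other groups. The first call was lost without any one of 5 of the 8 libraries and the second without KO SH replicate 1 (adjusted p up to 0.13 and 0.102). Without KO SH replicate 3 both passed the fold minimum, at -0.56 and 0.56. Hspa1l, an HSP70 gene beside Hspa1a, had 1.19, 1.16, 2.11 and 1.26 CPM in KO SH and 1.93, 4.37, 2.54 and 1.74 CPM in KO MI. The groups overlap, and the log2 fold change of 0.88 (SE 0.322, edgeR adjusted p = 0.0852) was not called without KO MI replicate 2 or without any one of 4 other libraries. Its similarity to Hspa1a leaves the assignment of reads uncertain.

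HSP110 genes, which exchange nucleotide on HSP70, had positive estimates for 3 of 3 in KO MI against KO SH. Hspa4l, named after its values were seen, rose by 0.28 (SE 0.0878, edgeR adjusted p = 0.0485), a call lost without any one of 4 of the 8 libraries, KO MI replicate 2 among them. Hsph1, the heat-inducible HSP110, differed by 0.23 (SE 0.0986, edgeR adjusted p = 0.146), and Hspa4 by 0.10 (SE 0.0878). A list of 12 members named as core targets of HSF1, which are spread over these classes, had 4 rises in this comparison (10.2% of all genes rose). Its median log2 fold change was 0.23. The risers were Hsp90aa1, Hspb1, Hspe1 and Hspa4l. Without KO MI replicate 2 the list had 2 rises (6.1% of all genes rose) and a median of 0.17. In KO SH against WT SH 1 of the 12 fell (Hspe1), where 7.21% of all genes fell. Estimates were negative for 11 of 12, against 9877 of 20159 over all genes. Without WT SH replicate 1 they were negative for 7 of 12.

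Of the J-domain genes, 2 of 4 DNAJA genes fell in KO SH against WT SH, 3 of 12 DNAJB genes fell and 1 rose, and 3 of 25 DNAJC genes fell and 1 rose, those of the ER and mitochondrion included (7.21% of all genes fell and 5.11% rose). Dnajb5 (Hsc40), a J-domain protein of heart and muscle, had 27.2, 27.2, 23.0 and 23.8 CPM in WT SH. It had 15.5, 19.8, 22.5 and 20.5 CPM in KO SH and 17.6, 18.7, 21.9 and 21.3 CPM in WT MI. Both of these groups lay wholly below WT SH, by 0.37 (SE 0.1, edgeR adjusted p = 0.0313) and 0.35 (SE 0.1, edgeR adjusted p = 0.0683) on the log2 scale. Dnajb2, which sorts clients to the proteasome, had 11.9, 12.6, 12.4 and 11.4 CPM in WT SH, with 9.58 to 10.8 CPM in KO SH and 8.82 to 10.3 CPM in WT MI. It fell in both, by 0.26 (SE 0.0727, edgeR adjusted p = 0.0352) and 0.34 (SE 0.0726, edgeR adjusted p = 0.0177), and both calls remained without any single library. Dnajc21, a factor in ribosome maturation, had from 15.0 to 18.2 CPM in WT SH, 13.0 to 14.5 CPM in KO SH and 12.7 to 14.7 CPM in WT MI. Its falls were 0.30 (SE 0.0786, edgeR adjusted p = 0.0261) and 0.32 (SE 0.0784, edgeR adjusted p = 0.0337). These 3 genes are all the members that fell in WT MI against WT SH, and since both contrasts use the 4 WT SH libraries, their calls are not independent. Without WT SH replicate 1 or 2 the WT MI falls of Dnajb5 and Dnajc21 did not pass, with adjusted p up to 0.19 and 0.11. That of Dnajb5 was also lost without WT MI replicate 1 or 2 and with sex as a covariate (adjusted p = 0.145). Without WT SH replicate 1 the KO SH fall of Dnajb5 did not pass.

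Dnajb4, a partner of HSP70 in muscle, had 42.3, 40.4, 38.5 and 36.6 CPM in WT SH and from 32.7 to 33.4 CPM in KO SH, a fall of 0.26 (SE 0.071, edgeR adjusted p = 0.0352) that did not pass without WT SH replicate 1. Dnaja2 fell by 0.18 (SE 0.0627, edgeR adjusted p = 0.0969), and the call was lost without any one of 7 of the 8 libraries, all but WT SH replicate 4. Dnajc18, of which little is known, rose in KO SH, where its 4 libraries lay between 20.9 and 21.4 CPM against 17.2 to 18.9 CPM in WT SH. Its rise of 0.22 (SE 0.0536, edgeR adjusted p = 0.0196) remained without any single library. Dnajb1, the heat-inducible Hsp40, and Dnajb6, which binds aggregating proteins and is known from muscle disease, did not pass in any comparison. For Dnajb6 the 4 log2 fold changes were between -0.02 and 0.02, with SE of about 0.0525.

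In KO MI against KO SH Dnajc28, a little-studied protein, had 19.1, 18.2, 18.4 and 19.1 CPM in KO SH and 15.9, 8.21, 12.9 and 15.0 CPM in KO MI. It was a DEG with a log2 fold change of -0.53 (SE 0.154, edgeR adjusted p = 0.0346), remained under an adjusted p of 0.1 without any single library, and was -0.38 (adjusted p = 0.0653) without KO MI replicates 2 and 7. Without KO MI replicate 2 it was -0.36 and no longer a DEG. Dnajc9, a histone chaperone of replicating cells that was named after its values were seen, rose by 0.40 (SE 0.121, edgeR adjusted p = 0.0419) and did not pass without KO MI replicate 2. Its levels were 14.1 to 14.9 CPM in KO SH and 16.9 to 21.7 CPM in KO MI. Dnajc13, Dnajc14 and Dnajc8 did not pass in any comparison. Dnajc13, an endosomal protein, nevertheless had 93.4 to 95.8 CPM in KO SH and 99.6 to 108 CPM in KO MI, without overlap (edgeR adjusted p = 0.105).

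Without KO MI replicate 2, 0 members were DEGs in KO MI against KO SH by edgeR (4.44% of all genes were). In that fit 4 members rose and 2 fell at an adjusted p under 0.1 (6.1% of all genes rose and 3.46% fell). Marker genes also differed in this comparison. All 5 cycling markers rose (summed level 329 to 374 CPM in KO SH and 492 to 666 CPM in KO MI), and 4 of 5 macrophage markers rose (22.0 to 24.8 CPM against 29.8 to 65.0 CPM). All 5 erythroid markers and 3 of 5 fibroblast markers rose as well, as did the 4 tested of 6 skeletal muscle markers. Of the 5 cardiomyocyte markers 2 rose and 1 fell, while 1 of 4 endothelial and 1 of 6 immediate early markers fell and 0 rose. Summed skeletal muscle markers ran from 2.44 CPM in KO MI replicate 1 to 111 CPM in KO MI replicate 7, against 1.16 to 1.91 CPM in KO SH. The part of these cells in the rises was not tested.

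In the interaction the estimates of 52 of 69 members were positive, with a median log2 value of 0.17 against 0.00 over all genes. These values reuse the 4 groups already described. Small heat shock protein genes had positive values for 6 of 6 (median 0.50) and Hspb6 was at 0.50 (SE 0.13, edgeR adjusted p = 0.16). Hspe1 was at 0.48 (SE 0.12, edgeR adjusted p = 0.15) and Hsp90aa1 at 0.51 (SE 0.14, edgeR adjusted p = 0.187). By edgeR no member passed. DESeq2 passed 8 members (2.83% of all genes) and called Hsp90aa1, Hspb1 and Hspb6 (adjusted p 0.0412, 0.0702 and 0.0295), against 1.43% of all genes. Without KO MI replicate 7 edgeR passed 15 members (9.08% of all genes) and called Hspe1, Hsp90aa1, Hspb6 and Hspb8 (4.2% of all genes). Without WT SH replicate 4 it called Hspe1 (adjusted p = 0.0784), against 0.854% of all genes.

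Of the genes that share only the letters, Hspg2 encodes perlecan, a proteoglycan of basement membranes and no chaperone. It had 868, 864, 823 and 839 CPM in WT SH and 727, 771, 748 and 747 CPM in KO SH, without overlap, and fell by 0.18 (SE 0.0437, edgeR adjusted p = 0.018), which remained without any single library. Hspbp1, an exchange factor of HSP70, and Hspbap1, which binds Hspb1, did not pass in any comparison.

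Other genes of the chaperone network, from lists of cochaperones and ER folding factors, were tested in the same fit. The 4 heat shock factor genes (Hsf1, Hsf2, Hsf4 and the HSF1-binding Hsbp1) did not pass in any comparison, nor did Cryab, the alpha-crystallin of muscle. Among 12 HSP70 cochaperones and exchange factors 5 fell in KO SH against WT SH and 0 rose, where 7.21% of all genes fell and 5.11% rose. These were Bag1, Bag2, Bag3, Stub1, which tags clients with ubiquitin, and Grpel1, the exchange factor of Hspa9. Bag3, the partner of Hspb8, fell by 0.24 (SE 0.0622, edgeR adjusted p = 0.0241), and Bag2 by 0.48 (SE 0.129, edgeR adjusted p = 0.0305). Bag2 and Stub1 rose in KO MI against KO SH, the only members of that list to do so. Among 14 HSP90 cochaperones 4 fell (Cdc37, Ptges3, Ppid and Unc45a) and 1 rose (Tomm34). Of 12 ER folding genes 1 rose, Manf, by 0.46 (SE 0.154, edgeR adjusted p = 0.0745), and 0 of 8 genes of the cytosolic chaperonin CCT passed.

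In KO MI against KO SH, where 10.2% of all genes rose and 7.31% fell, 3 of the 14 HSP90 cochaperones rose and 1 fell. Fkbp5, a glucocorticoid-responsive cochaperone, was a DEG at 0.75 (SE 0.171, edgeR adjusted p = 0.0104), and Ptges3 (p23) and Stip1 (Hop) rose by 0.33 and 0.34. Trap1, the mitochondrial HSP90, fell by 0.20 (SE 0.0587, edgeR adjusted p = 0.0388). Of the 8 CCT genes Tcp1, Cct6a and Cct8 rose. Among the ER folding genes Pdia3, Pdia4 and P4hb, which form disulfide bonds, rose, and Herpud1, a component of ER-associated degradation, fell by 0.40 (SE 0.102, edgeR adjusted p = 0.0174). WT MI against WT SH had 1 rise and 2 falls among the HSP90 cochaperones (Tomm34 up, Ahsa1 and the myosin chaperone Unc45b down), where 3.1% of all genes rose and 2.2% fell, and KO MI against WT MI had none in any list.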

How the data were processed

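The authors deposited expected counts from RSEM, not normalized and given as whole numbers, for 51912 genes and 16 libraries. Per the study's methods, strand-specific pairs of reads from rRNA-depleted total RNA were aligned to GRCm39 with STAR (2.5.3a) and counted with RSEM (1.3.0). The submitters' processing notes name HISAT2 (2.2.1) and RSEM (1.1.17) instead, so the aligner is uncertain, and the annotation release is not given in the sources used here. RSEM divides reads that match several genes, which leaves uncertain how much each near-identical gene holds. Gene names, positions and canonical transcripts came from GENCODE M39.

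Genes with at least 10 summed counts in each group (20159) were fitted in R (4.3.3) with edgeR (4.0.16), TMM scaling and 1 coefficient per group over all 16 libraries. SE of log2 fold changes come from the F statistic. CPM uses the TMM-scaled total of the library. Exact permutation tests (two-sided) used log2(CPM + 0.5). DESeq2 (1.42.0) was an alternative, as were its size factors, other filters, a robust fit, only the groups compared, sex as a covariate, a replicate block, other thresholds and each library left out in turn. In counts simulated for KO SH against WT SH over 19898 genes, the fit passed 62 of 66 genes changed by a log2 of 1, 37 of 67 changed by 0.5 and 15 of 67 changed by 0.3. The other 19698 genes were left unchanged, while 2483 of 20159 genes passed in the data, so the adjustment was stricter in the simulation. Only genes over a minimum mean count were changed. The rates therefore do not give the power for the members, least of all those of low count. Sex was read from Ddx3y, Eif2s3y, Kdm5d and Uty. Use of only libraries with Y-linked genes, and leaving out KO MI replicates 2 and 7, were added after seeing the data.

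Members, classes, lists and tests were chosen with earlier results of these data known. Genes named are members that were DEGs, the 5 with the smallest p in each contrast, the member of each class highest per length and members of known role. Others are said to be named after their values were seen.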

Additional observations from a re-analysis of the deposited data

Results flagged for a closer look

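Among 144 groups of 4 libraries (36 named members in 4 groups), 5 had a library whose gap to its nearest neighbour exceeded Dixon's 95% critical value as a share of the range of the group. Chance alone flags about 1 group in 20, which would be 7.2 here. KO MI replicate 7 was lowest for Dnaja3, at 32.3 CPM against 42.4 to 43.7 CPM in the other KO MI libraries, and highest for Hsp90ab1, at 792 CPM against 627 to 652 CPM. KO SH replicate 3 was highest for Hspa1l, at 2.11 CPM against 1.16 to 1.26 CPM. KO SH replicate 1 was lowest for Dnajc13, at 93.4 CPM against 95.4 to 95.8 CPM. WT MI replicate 2 was lowest for Hspb7, at 457 CPM against 636 to 662 CPM.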

How the results depend on the processing

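With no minimum fold change the members past the threshold numbered 16 in KO SH against WT SH, 1 in KO MI against WT MI, 3 in WT MI against WT SH and 11 in KO MI against KO SH. The shares of all genes were, in that order, 12.3%, 3.07%, 5.3% and 17.5%. In KO SH against WT SH 1 member, Hspb7, was a DEG with only the groups compared, with the replicate block and without KO MI replicates 2 and 7. The shares of all genes there were 5.79%, 5.67% and 6.48%. Each library left out in turn gave 0 to 1 member (Hspa2 without KO SH replicate 3), against 3.35% to 6.15% of all genes. In KO MI against WT MI and in WT MI against WT SH leaving out each library gave 0 throughout, against 1.14% to 2.88% and 1.42% to 3.19% of all genes. In KO MI against KO SH it gave 0 to 6 (4.44% to 10.9% of all genes). There 0 were DEGs among libraries with Y-linked genes (3.08% of all genes) and 1, Hspa2, without KO MI replicates 2 and 7 (6.59% of all genes). In the interaction leaving out each library gave 0 to 4 (0.01% to 4.2% of all genes), and DESeq2 gave 3 (1.43% of all genes). The replicate block gave 4 there (Dnajb5, Dnajc28, Hspb6 and Hspb8), against 3.42% of all genes. The cause of these shifts was not tested. At an adjusted p under 0.1 alone, KO SH against WT SH had 23 members with only the groups compared (18% of all genes). It had 24 without KO MI replicates 2 and 7 (21.4% of all genes). With the replicate block KO MI against WT MI had 4 (5.5% of all genes) and WT MI against WT SH had 6 (8.21%). KO MI against KO SH had 19 with the block (25.2% of all genes) and 23 without KO MI replicate 7 (28%). The interaction had 8 by DESeq2 (2.83% of all genes) and 15 with the block (7.36% of all genes). None of the 31 calls at an adjusted p under 0.1 changed sign under an alternative. Estimates that did not pass were not followed in this way. Of 248 values of these calls with a library left out 195 kept their side of the threshold. Among libraries with Y-linked genes 27 of the 31 named calls were lost. That subset holds 2 libraries in each group but WT SH, and fewer of all genes passed in it. In KO SH against WT SH 713 of 18684 genes passed, against 2483 of 20159 in the main fit. In KO MI against KO SH 758 passed, against 3533. Lost calls there thus cannot be read as a dependence on sex. Replicate numbers were not taken to pair the libraries. The deviations of same-numbered libraries correlated from -0.038 to 0.112, and only 1 of 14 pairs exceeded 0.1. Of 28 libraries 7 correlated best with their own number. These were 3 of 6 in KO MI against WT MI, 4 of 6 in KO MI against KO SH and 0 of 8 in each other comparison. With so few pairs these values cannot decide whether same-numbered libraries belong together. Depth limits the members near 1 CPM, since the SE of the log2 fold change in KO SH against WT SH was 0.251 for Hspa1a and 0.213 for Hspb3, against 0.0525 for Dnajb6.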
